A study of Mus musculus with 16 samples.

Results

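The Gimap family consists of *Gimap1*, *Gimap3*, *Gimap4*, *Gimap5*, *Gimap6*, *Gimap7*, *Gimap8* and *Gimap9*, which are 8 of the 27998 genes counted in single cells of lineage-depleted mouse bone marrow. All 8 were found by their symbols in each of the 8 count matrices. *Gimap6* was picked because it differed between *Tet2*-KO and WT hematopoietic stem cells (HSCs) of mice given IL1β, and the others were taken because they belong to the same family. For this reason that comparison in HSCs is a description, and nothing about the family is read from its counts or p-values. The effects of IL1β in HSCs and their interaction with genotype share those mice. The vehicle mice were not used in the choice. The gates of Flt3+ Cd34+, Mpo+ Cd34+ and Dntt+ progenitors share mice with it and hold cells that cluster with HSCs, so their values with IL1β are not independent of it. The cells came from 16 C57BL/6 mice, 4 in each of 4 groups, aged 6 to 12 weeks by the labels. The labels do not say whether this was their age at the first injection or at sampling, and the study's methods give a narrower range. WT mice were *Tet2*fl/fl without Cre, and *Tet2*-KO mice were *Tet2*-/- by *Vav-Cre*, which deletes the gene throughout hematopoietic cells, so that an effect of Cre cannot be told apart from one of *Tet2* loss. Mice received vehicle or 500 ng of IL1β, an inflammatory cytokine, each day for 5 weeks by intraperitoneal injection. Each of 8 libraries pooled 2 mice of 1 group, marked by hashtag antibodies, so that each group rests on 2 libraries.

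GIMAP proteins (GTPases of immunity-associated proteins) are small GTP-binding proteins that sit on intracellular membranes and are best known from lymphocytes, where they are needed for the survival and the homeostasis of T, B and NK cells. *Gimap5* is required for the persistence of peripheral T cells, and its loss in rats causes lymphopenia. *Gimap1* is required for mature T and B cells, *Gimap3* is a close relative of *Gimap5*, *Gimap4* has been linked to the death of T cells, *Gimap6* to autophagy, and *Gimap7* stimulates the GTPase activity of other members. Less is known of *Gimap8* and *Gimap9*, and of the family in stem cells.

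The 8 genes lie side by side on chromosome 6 and span 123.6 kb (chr6:48647234-48770851, GRCm38, GENCODE vM21). Along the chromosome the order was *Gimap8*, *Gimap9*, *Gimap4*, *Gimap6*, *Gimap7*, *Gimap1*, *Gimap5* and *Gimap3*, with *Gimap6* and *Gimap3* on the minus strand and the others on the plus strand. Of 60 annotated genes in the cluster and within 500 kb on either side, 35 were in the matrices, 8 of them the members and 27 their neighbours. *Gm28053*, which overlaps *Gimap7*, *Gimap1* and *Gimap5*, shares their strand, so reads in the overlap cannot be assigned with certainty. *Gimap3* and *Gimap5* shared 335 stretches of 31 bases, which are 13.153% of those in the transcripts of *Gimap3* and 8.022% of those of *Gimap5*, and the split of their counts is uncertain to that extent. No other pair of members shared any.

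All 8 genes were matched in the RefSeq promoter table of GRCm38.p6, with 2 starts for *Gimap8*. The 250 bases before the start are shown for 4 members that differ in where they were expressed or in their CpG count. These are *Gimap6*, *Gimap9* and *Gimap1*, which were high in HSC-like cells, and *Gimap3*, which was low outside NK/T-like cells. Capitals mark CpG dinucleotides, the sites of the methylation that TET2 oxidizes, and each sequence runs 5′ to 3′ on the strand of its gene. The positions are chr6:48708245-48708494 (minus strand) for *Gimap6*, chr6:48675885-48676134 (plus) for *Gimap9*, chr6:48738797-48739046 (plus) for *Gimap1* and chr6:48770852-48771101 (minus) for *Gimap3*.
Gimap6: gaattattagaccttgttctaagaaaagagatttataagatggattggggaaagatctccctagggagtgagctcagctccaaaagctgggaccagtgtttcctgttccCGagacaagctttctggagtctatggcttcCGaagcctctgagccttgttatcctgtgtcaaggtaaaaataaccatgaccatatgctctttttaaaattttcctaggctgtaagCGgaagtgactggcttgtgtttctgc
Gimap9: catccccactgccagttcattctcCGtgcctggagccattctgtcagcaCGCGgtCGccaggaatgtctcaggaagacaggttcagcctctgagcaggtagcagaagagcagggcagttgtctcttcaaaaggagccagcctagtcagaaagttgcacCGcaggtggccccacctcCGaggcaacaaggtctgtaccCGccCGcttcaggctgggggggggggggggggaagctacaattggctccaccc
Gimap1: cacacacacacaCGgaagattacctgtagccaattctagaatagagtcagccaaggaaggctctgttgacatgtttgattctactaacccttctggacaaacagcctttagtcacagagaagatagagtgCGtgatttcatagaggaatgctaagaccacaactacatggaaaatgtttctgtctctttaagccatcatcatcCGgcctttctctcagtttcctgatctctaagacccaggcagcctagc
Gimap3: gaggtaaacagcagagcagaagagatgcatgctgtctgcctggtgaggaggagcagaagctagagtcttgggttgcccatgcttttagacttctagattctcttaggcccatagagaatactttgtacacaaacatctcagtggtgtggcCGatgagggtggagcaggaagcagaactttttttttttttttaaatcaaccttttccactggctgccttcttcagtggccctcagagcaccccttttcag
CpGs were sparse in this window: *Gimap3* had 1, *Gimap7* and both starts of *Gimap8* had 2, *Gimap1*, *Gimap4*, *Gimap5* and *Gimap6* had 3, and only *Gimap9*, with 8, was above the median of 6 over 32851 promoters of 27025 genes. Of all these promoters, 37.771% had 3 CpGs or fewer. AGGAAG, 1 of the forms that sites of ETS factors take, searched on both strands and held by 29.485% of promoters, occurred in *Gimap9*, *Gimap7*, *Gimap1*, *Gimap5* and *Gimap3*, in *Gimap4* at 2 places and at 1 of the 2 starts of *Gimap8*. *Gimap6* did not hold these 6 letters, but the shorter ETS core GGAA was not searched and stands in its printed promoter. The RUNX core TGTGGT, held by 14.045% of promoters, occurred in *Gimap4*, *Gimap7* and *Gimap1*. Methylation and binding were not measured in these matrices, and the matches are given as a description of the letters only.

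After filtering, 94917 of 121405 barcodes remained and 57896 cells were assigned to 1 mouse. The summed depth was 4388604 to 44152768 UMIs per mouse. UMIs are unique molecular identifiers, which count captured RNA molecules, here at the 3′ end of transcripts. Pairs of libraries shared 11 to 57 barcode sequences. *Tet2* itself was at 32.0 to 59.7 CPM in WT and 49.4 to 58.7 CPM in *Tet2*-KO HSC-like cells with vehicle, and at 43.2 to 121 and 43.8 to 78.5 CPM with IL1β; a 3′ tag may lie outside the deleted part of the gene, so this level does not check the genotype labels. The hashtag calls were imperfect in part: cells called WT IL1β mouse 3 and WT vehicle mouse 2 carried UMIs both of *Xist* and of Y-linked genes, and WT vehicle mouse 1 held some Y-linked UMIs. Mixing of mice within a pool stays within 1 group, and calls that change when a mouse is left out are named with the result. Cells were placed into 14 classes by fixed marker genes (gates), and the comparisons use 6 of them. The HSC-like gate held 2363 cells with at least 2 of 8 markers, among them *Hlf*, *Mecom* and *Procr*, of which 66.78% had exactly 2, and 3179 further cells had 1. Of 6 check genes that the gate did not use, all 6 had their highest or second highest level there. The same held for 5 of 5 measured in NK/T-like, 3 of 3 in plasma-cell-like, 3 of 5 in Dntt+, 2 of 3 in Flt3+ Cd34+ and 1 of 3 in Mpo+ Cd34+ cells, so the last is defined by its gate genes more than by its check genes. UMIs were summed per mouse and gate, and in such sums fewer expressing cells and less RNA per cell cannot be told apart.

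Family members differed widely in where they were expressed. Levels are given as CPM, a gene's UMIs scaled to the total UMIs of the gate with TMM factors, as mean ± SD over mice. The sums over the 8 members are the exception, as they pool all cells of a gate without TMM factors. They were 1327 CPM in NK/T-like cells, 364 in HSC-like cells, 332 in plasma-cell-like cells and 298 in Dntt+ lymphoid progenitors. Pooling weights the mice by depth, and 509 of the 1333 plasma-cell-like cells came from WT mice with IL1β. The order of these sums below NK/T-like cells is therefore not read. *Gimap6* was at 209 ± 80.6 CPM in NK/T-like cells (n = 15 mice), 117 ± 36.0 in Dntt+ progenitors, 113 ± 43.3 in HSC-like cells and 105 ± 42.9 in plasma-cell-like cells (n = 16 each). The last 3 differed by less than their SD. Its level was 61.3 ± 38.0 in Flt3+ Cd34+ progenitors (n = 15), 40.3 ± 30.4 in plasmacytoid-DC-like cells (n = 7) and 32.8 ± 24.9 in Mpo+ Cd34+ progenitors (n = 15), where the SDs again overlap, then 20.6 ± 7.03 in megakaryocyte-progenitor-like cells, 15.3 ± 4.53 in basophil-like cells and 14.4 ± 7.49 in Gata1+ Gata2+ progenitors. In erythroid-like, monocyte-like and granulocyte-progenitor-like cells it was between 2.18 and 4.89 CPM, and neutrophil-like cells, at 5.18 ± 6.74, did not differ from these beyond the SD. *Gimap1* had its highest means in plasma-cell-like (138 ± 49.9), NK/T-like (130 ± 37.9) and HSC-like cells (111 ± 39.9), which also overlap. *Gimap9* declined less from class to class, from 99.6 ± 34.1 in NK/T-like cells through 64.3 ± 30.96 in HSC-like cells to 19.0 ± 4.75 in erythroid-like and 5.77 ± 2.40 in monocyte-like cells. *Gimap3* stood at 338 ± 213 CPM in NK/T-like cells and at 4.66 ± 7.56 in HSC-like cells, where 5 of 16 mice had none.

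**Figure D1:**
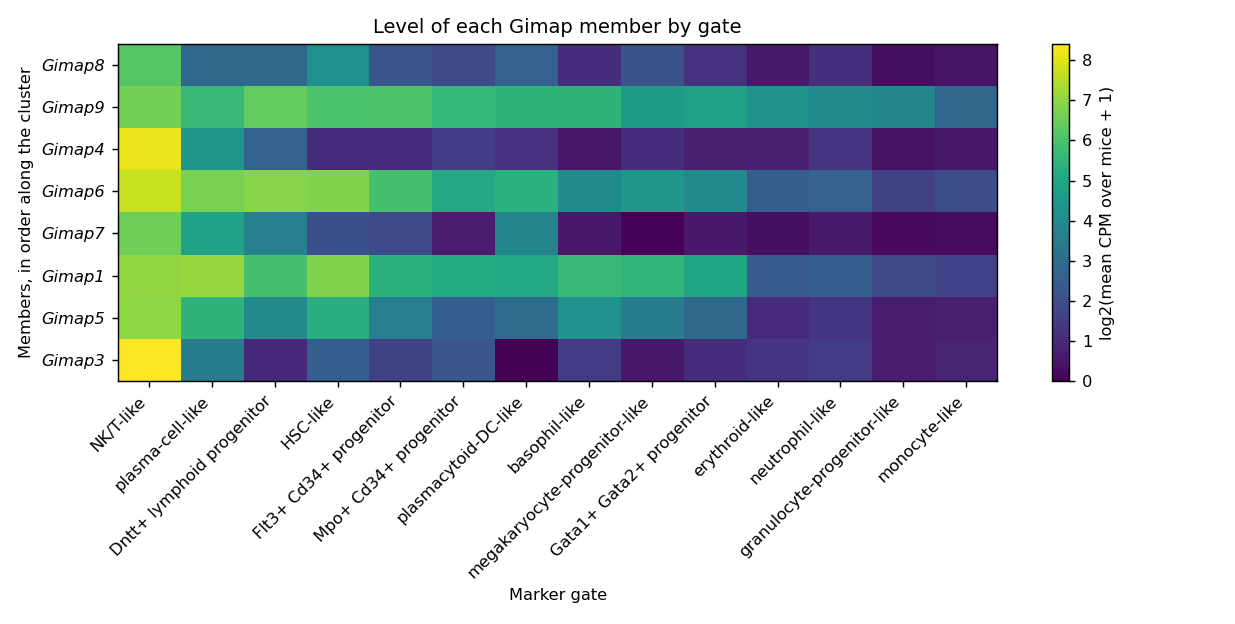
Colour gives log2(mean CPM over mice + 1) of each member (rows, in order along the cluster) in each of 14 marker gates (columns). All members are bright in NK/T-like cells, while in HSC-like cells *Gimap6* (113 CPM), *Gimap1* (111 CPM) and *Gimap9* (64.3 CPM) stand out and *Gimap4* (1.14 CPM), *Gimap7* (3.17 CPM) and *Gimap3* (4.66 CPM) are the darkest.

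The make-up of the family's UMIs differed between HSC-like and NK/T-like cells. Of 3024 member UMIs in HSC-like cells, *Gimap6* made up 33.0%, *Gimap1* 31.9%, *Gimap9* 17.2%, *Gimap5* 10.3% and *Gimap8* 5.26%, whereas *Gimap7* (1.12%), *Gimap3* (0.893%) and *Gimap4* (0.298%) were rare. Of 5570 member UMIs in NK/T-like cells, *Gimap3* made up 25.5%, *Gimap4* 20.9% and *Gimap6* 15.6%. The other lymphoid classes were closer to HSC-like cells: *Gimap6* made up 38.8%, *Gimap1* 23.0% and *Gimap3* 0.441% in Dntt+ progenitors, and 26.9%, 34.6% and 2.60% in plasma-cell-like cells. These shares pool the groups, and 389 of the 1010 NK/T-like cells came from *Tet2*-KO mice with IL1β. By group, NK/T-like cells held *Gimap3* at 225 and *Gimap6* at 213 CPM in WT vehicle mice, and at 646 and 276 CPM in *Tet2*-KO IL1β mice. *Gimap3* was the higher in both, and the size of its lead depended on the group. All of these are 3′ tags and not levels per length. Over the means of the 14 gates on the log2(CPM + 1) scale, the genes whose pattern was most like that of *Gimap6*, of 7877 genes outside the family, were *Peli1* (Pearson r = 0.932), *Maml2* (0.929), *Etv3* (0.920), *Zfp292* (0.899) and *Crebrf* (0.899). On the same measure *Gimap1* reached 0.916, *Gimap9* 0.914, *Gimap5* 0.894, *Gimap8* 0.838, *Gimap7* 0.748, *Gimap4* 0.628 and *Gimap3* 0.543. The points share libraries and depth, and the correlations are a description over 14 classes.

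In HSC-like cells with IL1β, the comparison that brought *Gimap6* to attention, 5 members passed the filter on low counts: *Gimap1*, *Gimap5*, *Gimap6*, *Gimap8* and *Gimap9*. *Gimap6* was at 72.5, 87.0, 107 and 41.6 CPM in the 4 WT mice and at 191, 147, 181 and 145 CPM in the 4 *Tet2*-KO mice. Every *Tet2*-KO mouse was above every WT mouse. *Gimap9* was at 45.7, 50.8, 69.2 and 33.3 CPM in WT and at 127, 79.9, 126 and 83.6 CPM in *Tet2*-KO mice, again without overlap. *Gimap1* was at 65.8, 123, 123 and 16.6 CPM in WT and 132, 125, 179 and 131 CPM in *Tet2*-KO mice, where the lowest *Tet2*-KO mouse was barely above the highest WT mice. *Gimap5* was at 17.9, 21.8, 26.2 and 16.6 CPM in WT and 44.1, 33.3, 56.6 and 29.0 CPM in *Tet2*-KO mice, also without overlap. *Gimap8* was at 6.69, 14.5, 15.0 and 33.3 CPM in WT and 24.5, 31.6, 17.7 and 22.1 CPM in *Tet2*-KO mice, and here WT mouse 4 was above all *Tet2*-KO mice. WT mouse 4 had 23 HSC-like cells with 115624 UMIs over all genes, so its values for the members rest on few UMIs. The groups did not overlap for 4 members, and 2.51% of the 7882 genes tested had every *Tet2*-KO mouse above every WT mouse; as *Gimap6* was picked for this difference, nothing is read from the count.

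**Figure D2:**
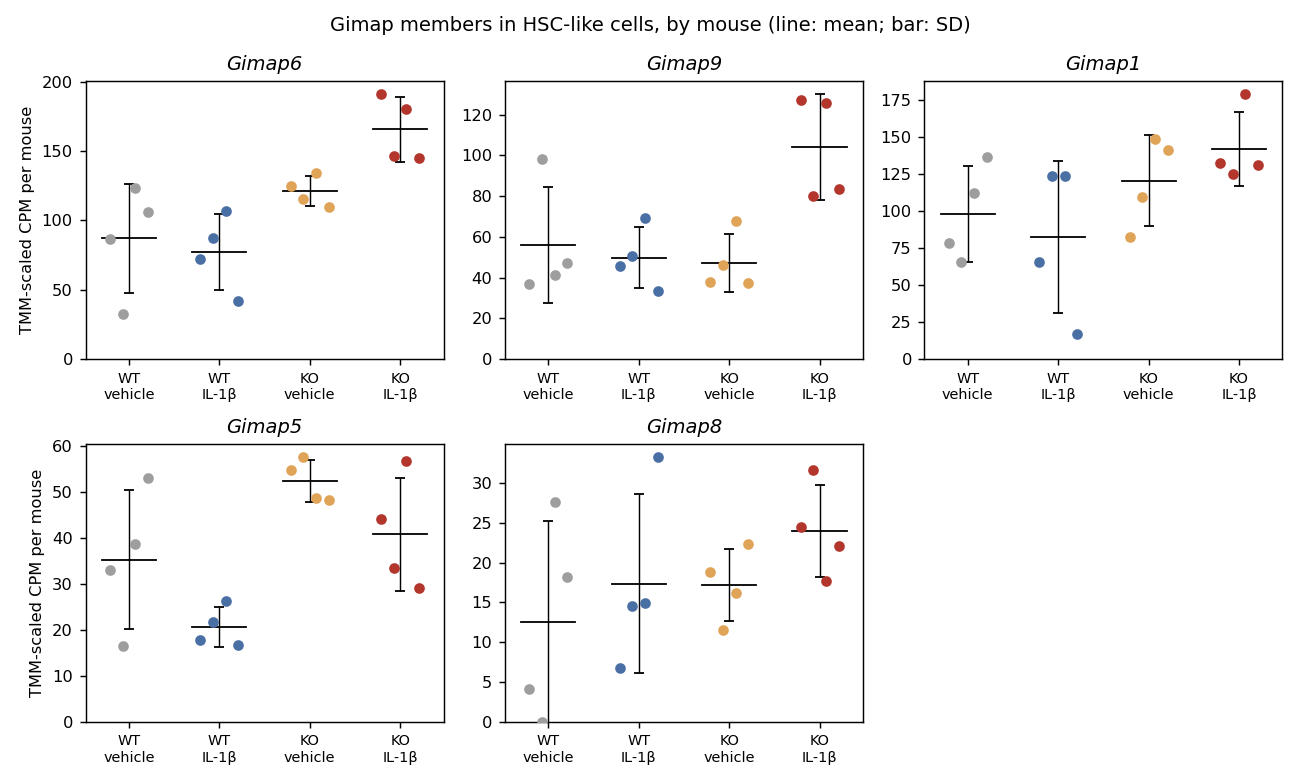
TMM-scaled CPM in HSC-like cells (y axis) of the 5 members above the filter, 1 point per mouse, 4 mice in each of 4 groups (x axis), with the mean as a line and the SD as a bar. The *Tet2*-KO mice with IL1β sit above the WT mice with IL1β for *Gimap6* (145 to 191 against 41.6 to 107 CPM) and *Gimap9* (79.9 to 127 against 33.3 to 69.2 CPM), while the vehicle groups overlap for both.

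The log2 fold changes of *Tet2*-KO relative to WT with IL1β in HSC-like cells were 0.97 ± 0.20 (SE) for *Gimap6*, 1.01 ± 0.41 for *Gimap8*, 0.89 ± 0.24 for *Gimap9*, 0.88 ± 0.29 for *Gimap5* and 0.70 ± 0.25 for *Gimap1*. Their median was 0.89, and the median over all genes tested was -0.0011. In this contrast 0% of genes passed an adjusted p of 0.05 by edgeR and none did by DESeq2, with 7.57% at an unadjusted p under 0.05, so no member was called. The values moved with the strictness of the gate: with at least 3 markers the log2 fold change was 0.53 for *Gimap6*, 0.44 for *Gimap1*, 0.86 for *Gimap9* and 1.60 for *Gimap5*. Leaving out every cell with an NK/T marker UMI gave 1.10 for *Gimap6*. *Gimap6* crossed the threshold by edgeR without WT IL1β mouse 3 (1.2002, adjusted p = 0.03495), without a filter on low counts (0.99, 0.000259), with the pool as replicate (1.08, 0.0388), with hashtag calls by ratio (1.09, 0.0193) and with clusters (1.13, 0.0118), and *Gimap9* did without a filter (0.90, 0.0226). For *Gimap6* these were 4 of 12 alternatives and 1 of 16 fits that left out 1 mouse, and it was not called in the rest. As this comparison chose *Gimap6*, neither these calls nor the medians are read as a result. The summed NK/T markers (9 of 10 measured) in HSC-like cells were at 20.1 to 71.3 CPM in WT and 25.1 to 41.9 CPM in *Tet2*-KO mice with IL1β, and the 3 Cd3 genes together reached at most 28.5 and 4.87 CPM. Of the NK/T markers, 2 were at 0 in WT and 1 in *Tet2*-KO mice with IL1β. The 6 endothelial markers together were at 7.13 to 33.5 CPM in WT and 22.8 to 45.6 CPM in *Tet2*-KO mice with IL1β, with 1 gene at 0 in each group, and their part in the result was not tested. The HSC markers of the gate together were at 605 to 1186 CPM in WT and 1061 to 1082 CPM in *Tet2*-KO mice with IL1β. The groups with vehicle had more endothelial marker UMIs, at 41.7 to 79.9 CPM in WT and 53.6 to 87.8 CPM in *Tet2*-KO mice.

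Counted per cell, a *Gimap6* UMI was found in 22.9% ± 3.80 of HSC-like cells of WT mice and in 42.6% ± 4.13 of those of *Tet2*-KO mice with IL1β (SD, n = 4 each). After thinning each cell to 3000 UMIs, which leaves out 226 of 470 and 277 of 706 shallower cells, the shares were 13.5% ± 6.31 and 30.5% ± 4.34. With vehicle, 3 WT mice had a thinned share of 19.1% ± 11.8 and 4 *Tet2*-KO mice one of 18.1% ± 5.72. Erythroid-like cells, which hold little of the gene, had thinned shares of 2.12% ± 1.03 and 1.68% ± 1.04 with IL1β, at median depths of 10215 and 13101 UMIs against 3100 and 3382 in HSC-like cells. For *Gimap9* the thinned shares in HSC-like cells were 10.9% ± 3.42 in WT and 26.5% ± 7.47 in *Tet2*-KO mice with IL1β. Its erythroid-like shares, 4.79% ± 0.581 and 4.25% ± 3.07, lay closer to the values in HSC-like cells than those of *Gimap6* did.

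With vehicle, which the choice of the family did not use, no member passed the test between the genotypes in HSC-like cells. *Gimap6* was at 86.5, 32.8, 123 and 106 CPM in WT and at 125, 115, 134 and 110 CPM in *Tet2*-KO mice. The groups overlap, since WT mouse 3 was above 2 *Tet2*-KO mice, and WT mouse 2, with few cells and imperfect hashtag calls, was the lowest. *Gimap9* was at 37.1, 98.3, 41.5 and 47.0 CPM in WT and 37.7, 46.1, 67.8 and 37.2 CPM in *Tet2*-KO mice. The same WT mouse 2 was the highest there. The log2 fold changes were 0.24 ± 0.20 for *Gimap6*, 0.29 ± 0.25 for *Gimap5*, 0.15 ± 0.25 for *Gimap1*, 0.08 ± 0.28 for *Gimap9* and -0.06 ± 0.41 for *Gimap8*. None of the 5 passed (edgeR, Benjamini-Hochberg adjusted p = 0.9998 for each; 0.0127% of genes called), none had an unadjusted p under 0.05, and DESeq2 called none. Their median was 0.15, against 0.01 over all genes, of which 4.59% had an unadjusted p under 0.05.

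In *Tet2*-KO HSC-like cells, *Gimap9* was higher with IL1β than with vehicle. As 12.8% of all genes were called in this comparison, a call of 1 among 5 members says little about the family. The 4 mice with vehicle (37.7, 46.1, 67.8 and 37.2 CPM) were all below the 4 with IL1β (127, 79.9, 126 and 83.6 CPM), a log2 fold change of 1.02 ± 0.23 (adjusted p = 0.00319 by edgeR). *Gimap9* was the only one of 5 members called, where 12.8% of genes were, and it remained called without any 1 of the 16 mice (log2 fold changes of 0.88 to 1.33), though not with at least 3 markers (0.86, adjusted p = 0.208). This comparison uses the same *Tet2*-KO mice with IL1β as the comparison between the genotypes. *Gimap6* had a log2 fold change of 0.40 ± 0.18 (adjusted p = 0.132 by edgeR), *Gimap8* 0.45 ± 0.36, *Gimap1* 0.21 ± 0.23 and *Gimap5* -0.41 ± 0.23. In WT mice, IL1β left *Gimap9* at 0.21 ± 0.28 and *Gimap6* at -0.33 ± 0.22, and the nearest to a call was *Gimap5*, from 32.9, 16.4, 38.7 and 53.0 CPM with vehicle to 17.9, 21.8, 26.2 and 16.6 CPM with IL1β (-0.998 ± 0.306, adjusted p = 0.0512 by edgeR). No member was called there, where 5.39% of genes were, and DESeq2 called none, with 1 member at an unadjusted p under 0.05. The fall of *Gimap5* passed without *Tet2*-KO IL1β mouse 3 (adjusted p = 0.0411), *Tet2*-KO vehicle mouse 1 (0.0472) or WT vehicle mouse 2 (0.0432). The test of the difference between the 2 IL1β effects, the interaction, contains the difference for which *Gimap6* was picked, so the direction of its values is not read. They were 0.73 ± 0.28 for *Gimap6*, 0.81 ± 0.37 for *Gimap9*, and between 0.56 and 1.07 for the other 3 members. None passed (adjusted p = 0.9993 by edgeR for each; 0% of genes called, 4.42% at an unadjusted p under 0.05; 0 by DESeq2), so the IL1β effect on *Gimap9* was not shown to differ between the genotypes.

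The 27 neighbours of the cluster were read in the same cells. In HSC-like cells 7 of them passed the filter, and with IL1β their median log2 fold change of *Tet2*-KO relative to WT was 0.08. There 0 of 7 were called, as were 0% of all genes. *Tmem176a* and *Tmem176b*, a pair of membrane protein genes next to *Gimap3*, had values of 0.16 ± 0.18 and 0.03 ± 0.18, and the largest was that of *Zfp467*, 0.61 ± 0.35. As the members' values here come from the comparison that chose *Gimap6*, no contrast with them is drawn. In NK/T-like cells 4 neighbours passed the filter. With IL1β *Tmem176a* was above its WT level in *Tet2*-KO mice by 1.43 ± 0.31 on the log2 scale (adjusted p = 0.0195 by edgeR). It was the only neighbour called there, where 1.47% of genes were. *Tmem176b* had 1.02 ± 0.28 (adjusted p = 0.0609), while *Malsu1* and *Tra2a*, over 300 kb away, had -0.12 ± 0.40 and 9e-04 ± 0.19. IL1β raised *Tmem176a* (1.63 ± 0.31, adjusted p = 0.00255 by edgeR) and *Tmem176b* (1.58 ± 0.28, adjusted p = 0.00185) in NK/T-like cells of *Tet2*-KO mice. In this comparison, which shares the *Tet2*-KO mice with IL1β, 11% of genes were called. The markers and the depth of the NK/T gate also differed between the genotypes with IL1β, as given below. Their part in the values of these neighbours was not tested. No neighbour was called between the genotypes in the other 5 gates, where at most 0.456% of genes were. *Gm5111* fell by 2.20 on the log2 scale with IL1β in Dntt+ progenitors of WT mice (adjusted p = 0.00986 by edgeR; 3.01% of genes called).

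**Figure D3:**
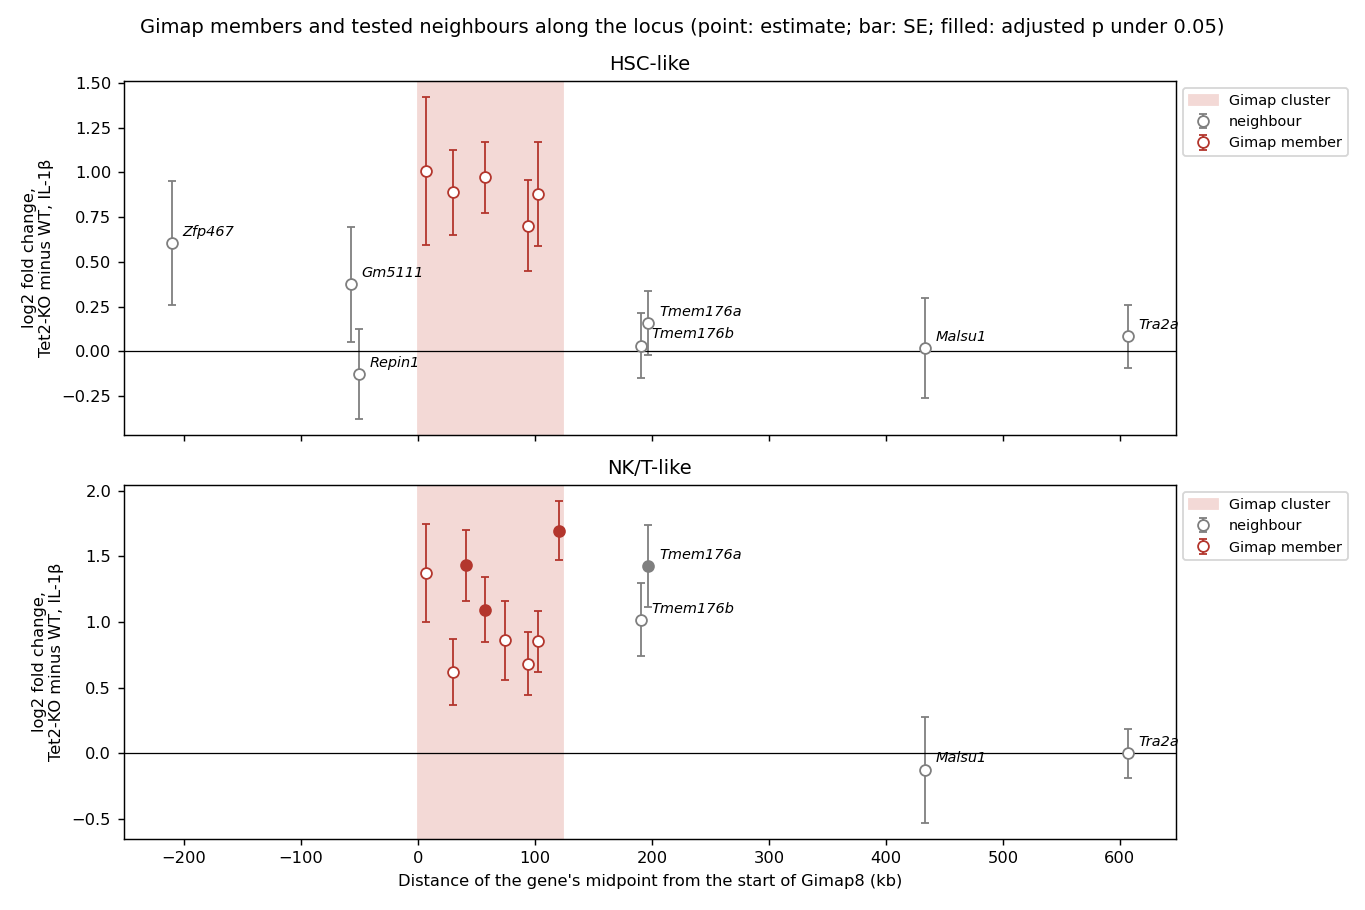
Log2 fold change of *Tet2*-KO relative to WT with IL1β (y axis, edgeR estimate with SE as bar) for members and tested neighbours by distance of the gene's midpoint from the start of *Gimap8* in kb (x axis), in HSC-like (top) and NK/T-like cells (bottom). Filled points have an adjusted p under 0.05. In HSC-like cells the 5 members lie at 0.70 to 1.01, *Tmem176a* and *Tmem176b* at 0.16 and 0.03, and *Zfp467* at 0.61. That comparison chose *Gimap6*, so no contrast of members with neighbours is drawn from it. In NK/T-like cells *Tmem176a* is at 1.43.

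NK/T-like cells, in which the family is best known, held the largest number of members called between the genotypes. All 8 were tested there and fewer in each other gate, and as a share of those tested the calls were not the most frequent. This gate held 1010 cells, and WT vehicle mouse 2, with under 10 of them, was left out. With IL1β, *Gimap3*, *Gimap4* and *Gimap6* rose above their WT levels in *Tet2*-KO mice, and the other 5 members had positive values that did not pass. *Gimap3* was at 158, 228, 202 and 219 CPM in WT and at 888, 615, 633 and 449 CPM in *Tet2*-KO mice. All *Tet2*-KO mice were above all WT mice by a wide margin, and the log2 fold change was 1.70 ± 0.22 (adjusted p = 0.000614 by edgeR). *Gimap4* was at 102, 176, 249 and 185 CPM in WT and at 631, 443, 550 and 328 CPM in *Tet2*-KO mice, without overlap (1.43 ± 0.27, adjusted p = 0.00813 by edgeR). *Gimap6* was at 107, 70.2, 138 and 161 CPM in WT and at 379, 273, 261 and 192 CPM in *Tet2*-KO mice, also without overlap (1.09 ± 0.25, adjusted p = 0.0254 by edgeR). These are 3 of 8 members, where 1.47% of 5171 genes were called.

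Of the members that did not pass in NK/T-like cells, *Gimap8* had a log2 fold change of 1.37 (adjusted p = 0.0600 by edgeR), *Gimap5* 0.85 (0.0596), *Gimap7* 0.86 (0.154), *Gimap1* 0.68 (0.157) and *Gimap9* 0.62 (0.250). *Gimap8* was called when *Tet2*-KO IL1β mouse 3 or 4, *Tet2*-KO vehicle mouse 1 or WT vehicle mouse 1 or 4 was left out (adjusted p of 0.0448 to 0.0499 by edgeR) and under 6 of 12 other alternatives. *Gimap5* was called without *Tet2*-KO IL1β mouse 4 (0.96, 0.0384) or *Tet2*-KO vehicle mouse 1 (0.87, 0.0458). *Gimap8* was at 13.96, 35.1, 67.2 and 55.6 CPM in WT and 183, 120, 82.6 and 88.1 CPM in *Tet2*-KO mice, which did not overlap. Only *Gimap9* overlapped, with 83.8, 105, 115 and 74.1 CPM in WT and 179, 154, 124 and 96.1 CPM in *Tet2*-KO mice. In all, 7 of 8 members did not overlap, where 4.7% of genes had every *Tet2*-KO mouse above every WT mouse, and the median log2 fold change of the 8 was 0.98, against 0.01 over all genes. DESeq2 called *Gimap8* in addition to the 3. The call of *Gimap3* and of *Gimap4* held without any 1 of 15 mice. That of *Gimap6* was lost without *Tet2*-KO IL1β mouse 1 (0.91, adjusted p = 0.112) or mouse 2 (1.12, 0.0561), or WT IL1β mouse 1 (1.01, 0.0706), mouse 2 (1.01, 0.0515) or mouse 3 (1.14, 0.0793), all by edgeR. With the pool as replicate only *Gimap3* stayed called (1.66, adjusted p = 0.0254), with 0.124 for *Gimap4* and 0.228 for *Gimap6*. Over the same 12 alternatives *Gimap3* was called in 12, *Gimap4* in 9, *Gimap6* in 7, *Gimap5* in 2 and *Gimap1* in 1.

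**Figure D4:**
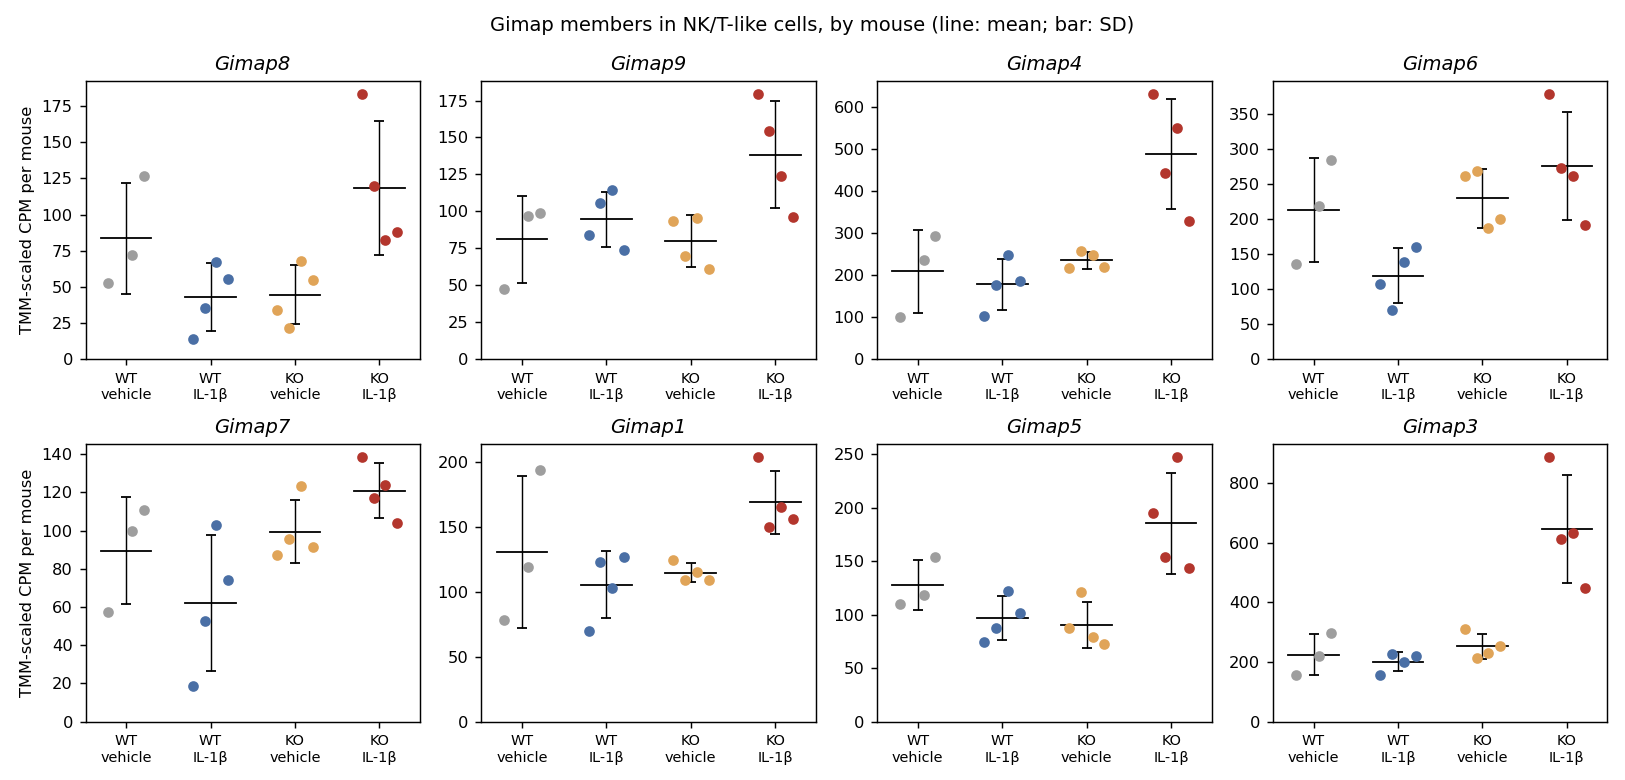
TMM-scaled CPM in NK/T-like cells (y axis) of all 8 members, 1 point per mouse, in 4 groups (x axis; 3 mice for WT vehicle, 4 in the others), with the mean as a line and the SD as a bar. *Gimap3* reaches 449 to 888 CPM in the *Tet2*-KO mice with IL1β and 157 to 311 CPM in the other 3 groups.

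The cells in the NK/T gate also differed between these groups. With IL1β their median depth was 2604 to 4890 UMIs per cell in WT mice and 1648 to 1942 in *Tet2*-KO mice. Of all 1010 cells of the gate, 786 fell into clusters named NK/T-like. The part of depth and of the remaining cells in the result was not tested. The summed NK/T markers were at 1409 to 2513 CPM in WT and at 3713 to 5289 CPM in *Tet2*-KO mice with IL1β, with none of the 9 measured at 0 in either group, against 2006 to 3301 and 2601 to 3384 CPM with vehicle. The NK cell genes *Ncr1* and *Klrb1c* together were at 139 to 343 CPM in WT and 439 to 675 CPM in *Tet2*-KO mice with IL1β, and the 3 Cd3 genes of T cells at 182 to 347 and 326 to 675 CPM. The share of the gate's cells with a Cd3 UMI ran with IL1β from 40% to 51.4% for WT and from 35.6% to 54.2% for *Tet2*-KO, against 53.8% to 69.8% and 55.6% to 80.0% with vehicle. Transcripts of granulocyte precursors also moved, with *Mpo* at 693 to 1608 CPM in WT and 1511 to 3086 CPM in *Tet2*-KO mice with IL1β. In cells with a Cd3 UMI alone, an analysis added after the data were seen, *Gimap3* was still called (1.32, adjusted p = 0.0414 by edgeR), while *Gimap4* (1.41, 0.0925) and *Gimap6* (1.07, 0.129) lost their calls, and *Gimap1* had 0.13. In cells without one, *Gimap3* was called as well (2.17, adjusted p = 0.0332 by edgeR), while *Gimap4* (1.48, 0.0677), *Gimap6* (1.04, 0.273) and *Gimap1* (1.1992, 0.183) were not. The part of the cell make-up beyond this split was not tested.

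With vehicle, no member was called between the genotypes in NK/T-like cells (0% of genes by edgeR and none by DESeq2, with 3.81% at an unadjusted p under 0.05). *Gimap3* was at 157, 221 and 297 CPM in WT and at 311, 213, 231 and 255 CPM in *Tet2*-KO mice, which overlap (0.16 ± 0.24). *Gimap6* had 0.10 ± 0.25 and *Gimap4* 0.14 ± 0.29. Only *Gimap8* had an unadjusted p under 0.05, and it pointed the other way (-0.94 ± 0.41, adjusted p = 1 by edgeR). The median of the 8 members was 0.03, with 4 values negative and 4 positive, and that of all genes 0.01.

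Within *Tet2*-KO mice, IL1β raised 5 of the 8 members in NK/T-like cells, where 11% of genes were called. These were *Gimap3* (1.35 ± 0.21, adjusted p = 0.00110 by edgeR), *Gimap5* (0.98 ± 0.22, 0.00878), *Gimap8* (1.46 ± 0.36, 0.0139), *Gimap4* (1.04 ± 0.26, 0.0140) and *Gimap9* (0.78 ± 0.25, 0.0417). *Gimap6*, with 262, 270, 187 and 201 CPM with vehicle and 379, 273, 261 and 192 CPM with IL1β, overlapped between the treatments and was not called (0.26 ± 0.23, adjusted p = 0.493 by edgeR). DESeq2 called 4, without *Gimap9*. In cells with a Cd3 UMI, whose share of the gate was lower with IL1β in these mice (35.6% to 54.2%, against 55.6% to 80.0% with vehicle), only *Gimap3* was called (0.84, adjusted p = 0.0459 by edgeR), while *Gimap5* had 0.40 (0.470). In cells without one, *Gimap3* (2.06, adjusted p = 0.0118 by edgeR), *Gimap5* (1.51, 0.0272) and *Gimap4* (1.18, 0.0389) were called. *Gimap8* and *Gimap9* were called in neither. The call of *Gimap5* was also lost with the pool as replicate (0.96, adjusted p = 0.0915 by edgeR) and with clusters (0.62, 0.0881). Over 12 alternatives, this split included, *Gimap3* was called in 12, *Gimap4*, *Gimap5* and *Gimap8* in 9 each, and *Gimap9* in 7. With clusters *Gimap4* was at 0.64, *Gimap8* at 1.16 and *Gimap9* at 0.38. Without *Tet2*-KO IL1β mouse 1 the calls of *Gimap4* (0.89, adjusted p = 0.0620), *Gimap8* (1.22, 0.0627) and *Gimap9* (0.66, 0.139) were lost by edgeR. *Gimap8* was also lost without *Tet2*-KO vehicle mouse 2 (1.24, 0.0548), and *Gimap9* without *Tet2*-KO IL1β mouse 2 (0.73, 0.137) or *Tet2*-KO vehicle mouse 2 (0.71, 0.114), mouse 3 (0.89, 0.0669) or mouse 4 (0.69, 0.113).

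In NK/T-like cells of WT mice, IL1β moved no member past the threshold (1.08% of genes called, none of the members by DESeq2). The values ran from -0.86 ± 0.42 for *Gimap8* to 0.13 ± 0.29 for *Gimap9*, and *Gimap6*, at -0.74 ± 0.27, was the only one with an unadjusted p under 0.05. The interaction of genotype and IL1β was positive for each of the 8, from 0.65 ± 0.38 for *Gimap9* to 2.32 ± 0.55 for *Gimap8*. By edgeR none of them passed (0% of genes called, 10% at an unadjusted p under 0.05, among them 6 members), with *Gimap3* at 1.53 ± 0.33 (adjusted p = 0.143). DESeq2 called 12 genes, *Gimap3* and *Gimap8* among them. *Gimap3* was called by edgeR without *Tet2*-KO vehicle mouse 1 (1.69, adjusted p = 0.0438) or WT vehicle mouse 1 (1.73, 0.0338). The interaction shares mice with each of the comparisons above.

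Plasma-cell-like cells, marked by *Jchain* and *Mzb1*, showed a difference in *Gimap1*, which mature B cells need, and in *Gimap7*. *Gimap1* was at 60.5, 81.3, 65.6 and 64.8 CPM in WT and at 187, 167, 118 and 141 CPM in *Tet2*-KO mice with IL1β. The groups were far apart, with a log2 fold change of 1.22 ± 0.19 (adjusted p = 0.00659 by edgeR), and the call was lost only without *Tet2*-KO IL1β mouse 2 (1.18, adjusted p = 0.0504). *Gimap7* was at 6.30, 6.78, 2.52 and 3.08 CPM in WT and 22.1, 31.1, 59.0 and 55.2 CPM in *Tet2*-KO mice (2.95 ± 0.63, adjusted p = 0.0317 by edgeR). This rests on 10 UMIs in the WT and 45 in the *Tet2*-KO mice, and the call was lost when *Tet2*-KO IL1β mouse 2, 3 or 4 or WT IL1β mouse 1, 3 or 4 was left out (adjusted p of 0.0661 to 0.141 by edgeR). The other 3 members tested had values of 0.45 for *Gimap9*, 0.75 for *Gimap6* and 0.88 for *Gimap5* that did not pass. Thus 2 of 5 members were called, where 0.456% of 4386 genes were, and 3 did not overlap, where 3.42% of genes had every *Tet2*-KO mouse above every WT mouse. DESeq2 called *Gimap1* here and in the effect of IL1β in WT mice below.

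The difference in *Gimap1* went with a lower level after IL1β in WT mice. In WT plasma-cell-like cells it was at 182, 120, 223 and 173 CPM with vehicle and at 60.5 to 81.3 CPM with IL1β, without overlap, and fell by 1.46 on the log2 scale (SE 0.20, adjusted p = 0.00123 by edgeR). *Gimap7* fell by 3.25 (SE 0.66, adjusted p = 0.0196 by edgeR), but with vehicle its WT mice ranged from 0 to 86.1 CPM and overlapped those with IL1β, and the call was lost without WT IL1β mouse 1 (adjusted p = 0.0534), 3 (0.0573) or 4 (0.0569) or WT vehicle mouse 3 (0.134) or 4 (0.0765). These were 2 of 5 members, where 0.775% of genes were called. In *Tet2*-KO mice *Gimap1* was at 173, 129, 147 and 179 CPM with vehicle and at 187, 167, 118 and 141 CPM with IL1β, a log2 fold change of 0.01 ± 0.20, and no member was called (0.98% of genes; none at an unadjusted p under 0.05 and none by DESeq2). With vehicle the genotypes gave -0.24 ± 0.21 for *Gimap1*, and no member was called (0.0228% of genes; none at an unadjusted p under 0.05 and none by DESeq2). The interaction passed for *Gimap1* at 1.46 ± 0.28 (adjusted p = 0.0483 by edgeR, 0.0684% of genes), close to the threshold, and it was lost in 12 of 16 fits that left out 1 mouse (adjusted p of 0.0623 to 0.190). DESeq2 called it together with *Gimap7* (6 genes in all). It was also lost by edgeR with the pool as replicate (1.54, adjusted p = 0.235) and with hashtag calls by ratio (1.23, 0.742). *Jchain* was at 45939 to 69680 CPM in WT and 67767 to 105003 CPM in *Tet2*-KO mice with IL1β, and the B cell gene *Cd79a* at 399 to 612 and 538 to 834 CPM. The part of these differences in plasma-cell genes was not tested.

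Among the members tested in the progenitors, *Gimap6* had the largest differences between the genotypes with IL1β. It was picked for this comparison in HSCs of the same mice, and the progenitor gates hold cells that cluster with HSCs. Its rank among the members is therefore not read as a result. In Mpo+ Cd34+ progenitors with IL1β *Gimap6* was at 14.3, 0, 11.4 and 30.6 CPM in WT mice. The 3 *Tet2*-KO mice with enough cells were at 54.9, 86.9 and 84.2 CPM, without overlap. The log2 fold change was 2.43 ± 0.47 (adjusted p = 0.0383 by edgeR), and *Gimap6* was 1 of only 2 genes called (0.0364%). The result rests on 9 UMIs in WT and 42 in *Tet2*-KO mice. DESeq2 did not call it (2.52, adjusted p = 0.176), nor did edgeR with at least 30 cells per mouse (2.30, 0.252), and the call was lost in 9 of 15 fits that left out 1 mouse: *Tet2*-KO IL1β mouse 3 or 4, *Tet2*-KO vehicle mouse 3 or 4, WT IL1β mouse 1, 2 or 3, or WT vehicle mouse 1 or 3, with log2 fold changes of 2.21 to 2.55 and adjusted p of 0.0509 to 0.178. The call was also lost with RLE size factors (2.44, adjusted p = 0.0504 by edgeR). Of the gate's cells, 462 fell into HSC-like clusters and 456 into the clusters named Mpo+ Cd34+ progenitor. With clusters in place of gates the value was -0.07, but the clusters of that name are largely another class, with 11833 granulocyte-progenitor-like and 6747 monocyte-like cells. With vehicle it was 0.63 ± 0.36 and no member was called (0% of genes, 0 members at an unadjusted p under 0.05, none by DESeq2). IL1β raised it in *Tet2*-KO mice from 25.2, 31.6, 34.6 and 35.7 CPM (1.10 ± 0.33, adjusted p = 0.0413 by edgeR; 6.59% of genes), with 6 of 15 such fits losing the call, those without *Tet2*-KO IL1β mouse 2, 3 or 4 or *Tet2*-KO vehicle mouse 1, 3 or 4 (adjusted p of 0.0557 to 0.137). It was also lost without a filter on low counts (1.02, adjusted p = 0.0894 by edgeR), with sex as a covariate (1.09, 0.0513), with at least 30 cells per mouse (0.99, 0.109) and with clusters, and DESeq2 gave no adjusted p. It was not called in WT mice (-0.71 ± 0.54; 7.83% of genes, no member). The interaction of 1.81 ± 0.62 did not pass (adjusted p = 0.9996 by edgeR; 0% of genes). In these cells the 3 Cd3 genes together were at 0 to 9.82 CPM in WT and 0 to 6.198 CPM in *Tet2*-KO mice with IL1β, and *Cd2* and *Mzb1* were at 0 in both.

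In Flt3+ Cd34+ progenitors with IL1β, *Gimap6* was at 13.7, 108, 33.0 and 36.0 CPM in WT and at 110, 114, 124 and 67.6 CPM in *Tet2*-KO mice. WT mouse 2 was as high as the *Tet2*-KO mice, and the log2 fold change of 1.53 ± 0.39 did not pass (adjusted p = 0.193 by edgeR), though it did without that mouse (2.13, adjusted p = 0.0392) and without a filter on low counts (1.498, 0.000540). Without WT mouse 1 it was 0.97 (adjusted p = 0.625 by edgeR), and with hashtag calls by ratio 0.95 (0.319). Of the gate's cells, 516 fell into HSC-like clusters and 377 into the clusters named Mpo+ Cd34+ progenitor. No member was called in any comparison of this gate. The shares of genes called were 0% between the genotypes with vehicle (3.98% at an unadjusted p under 0.05) and 0% with IL1β (7.92%), 3.38% for IL1β in WT, 9.71% for IL1β in *Tet2*-KO mice and 0% for the interaction (4.34%), and DESeq2 called no member in any of them. *Gimap9* with IL1β had 0.82 ± 0.42 in WT and 0.90 ± 0.34 in *Tet2*-KO mice, the latter called without *Tet2*-KO IL1β mouse 4 (1.11, adjusted p = 0.0439 by edgeR).

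Dntt+ lymphoid progenitors, named for the DNA polymerase that adds bases at the joints of rearranged antigen receptor genes, held *Gimap6* at a level like that of HSC-like cells and showed no called difference in it. Of the gate's cells, 621 fell into clusters named Dntt+ lymphoid progenitor, 261 into HSC-like clusters and 199 into clusters named Mpo+ Cd34+ progenitor. The part of these other cells in the level of *Gimap6* and in the make-up of the family's UMIs was not tested. With IL1β *Gimap6* was at 58.0, 81.5, 79.7 and 135 CPM in WT and 150, 159, 92.2 and 111 CPM in *Tet2*-KO mice. The groups overlap through WT mouse 4 (0.72 ± 0.30, adjusted p = 0.598 by edgeR). With vehicle it was 0.20 ± 0.23. No member was called in this gate in the comparisons of genotype with vehicle (0% of genes, 3.76% at an unadjusted p under 0.05) or with IL1β (0%, 7.5%), for IL1β in WT (3.01%) or in *Tet2*-KO mice (2.22%), or in the interaction (0%, 3.24%), and DESeq2 called none. *Gimap1* with IL1β in *Tet2*-KO mice had -0.96 ± 0.36 (adjusted p = 0.163 by edgeR), and it passed only without *Tet2*-KO vehicle mouse 2 (-1.15, 0.0443).

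**Figure D5:**
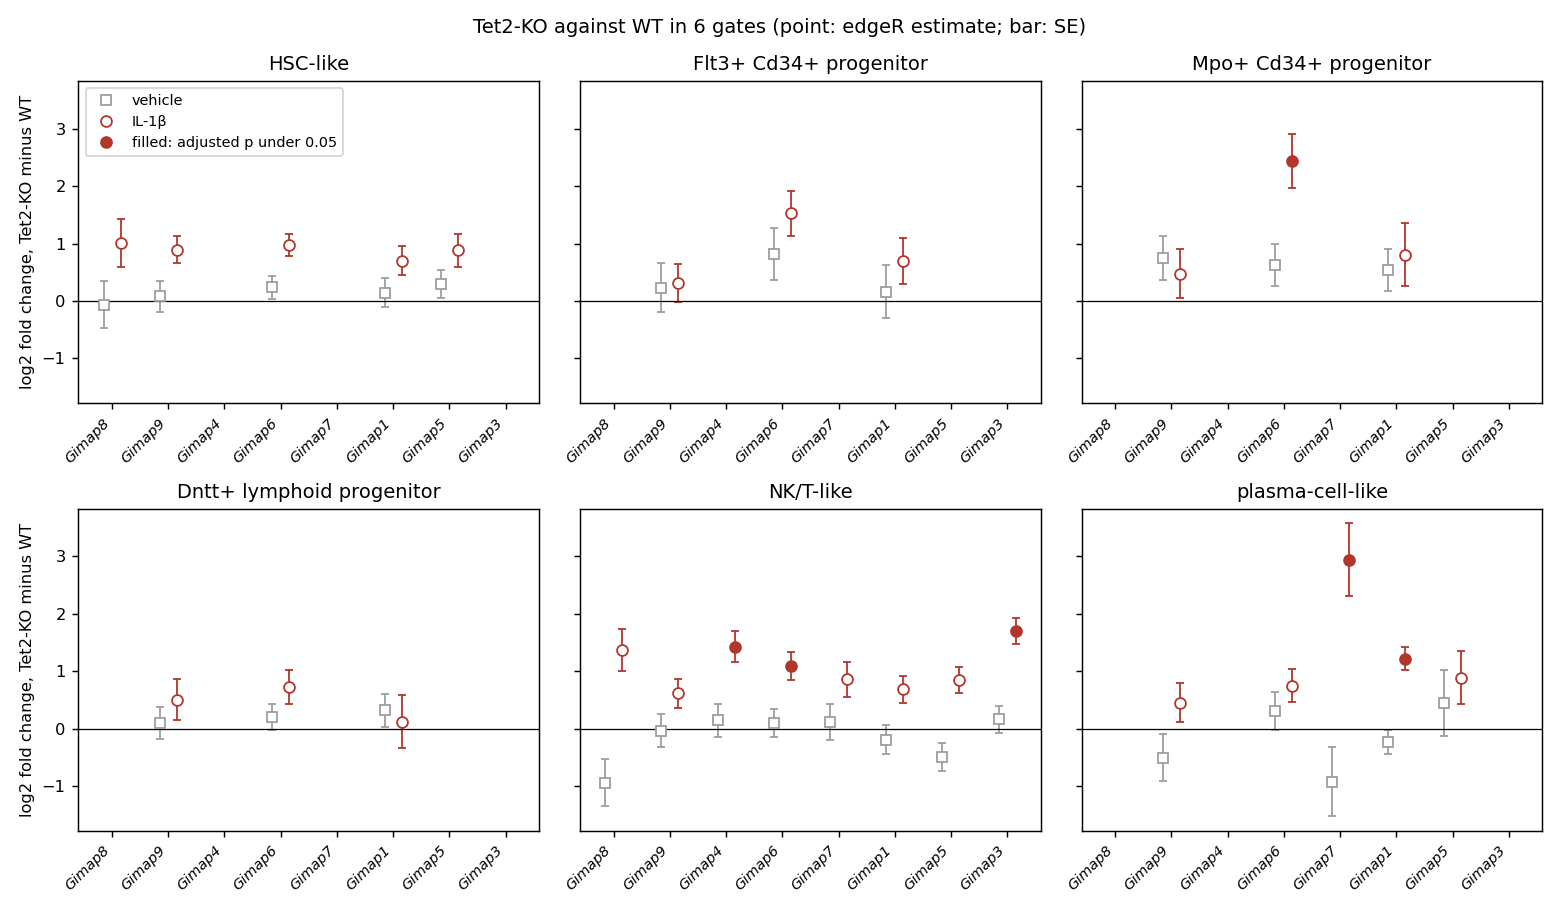
Log2 fold change of *Tet2*-KO relative to WT (y axis, edgeR estimate with SE as bar) for each member tested (x axis, in order along the cluster) in 6 gates, with vehicle (grey squares) and with IL1β (red circles); filled symbols have an adjusted p under 0.05. With IL1β all points lie above 0, from 0.12 for *Gimap1* in Dntt+ progenitors to 2.95 for *Gimap7* in plasma-cell-like cells, and no symbol for vehicle is filled. Of all genes, 51.8% in Dntt+ and 49.4% in Flt3+ Cd34+ progenitors had a positive value with IL1β. The HSC-like points come from the comparison that chose *Gimap6*, and the gates share mice. The common direction is therefore not read as a result.

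Over the 6 gates there were 27 tests of a member in each comparison. *Tet2*-KO relative to WT gave 6 calls with IL1β, each of them higher in *Tet2*-KO mice, and 0 with vehicle. IL1β gave 2 calls in WT, both lower, and 7 in *Tet2*-KO mice, each of them higher. The share of all genes called ranged over the gates from 0% to 1.47% between the genotypes with IL1β, from 0% to 0.0228% with vehicle, from 0.775% to 7.83% for IL1β in WT and from 0.98% to 12.8% for IL1β in *Tet2*-KO mice. The 27 tests with IL1β include the 5 in HSC-like cells that the choice used. The calls of *Gimap6* in Mpo+ Cd34+ progenitors come from a gate that is not independent of that choice. These comparisons share groups of mice and are not independent of each other. Outside these gates, IL1β raised *Gimap9* in monocyte-like cells of WT (0.76, adjusted p = 0.0294 by edgeR) and of *Tet2*-KO mice (1.27, 0.000274). In WT mice it lowered *Gimap1* in basophil-like cells (-0.59, adjusted p = 0.0242 by edgeR, 7.34% of genes called). *Gimap9* fell in erythroid-like cells of WT mice (-0.54, adjusted p = 0.0300 by edgeR, 18% of genes called).

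Genes of cell survival and of lymphoid homeostasis, 2 lists that hold genes known to work beside the family, gave few calls in the comparisons of genotype. Few genes of any kind were called there, 0% in HSC-like and 1.47% in NK/T-like cells with IL1β. With vehicle the shares were 0.0127% and 0%, so a count of 0 in these lists says nothing about their genes. Of 7 Bcl2 family genes, 0 of 7 tested were called in HSC-like cells with either treatment, with medians of 0.23 with vehicle and -0.14 with IL1β. In NK/T-like cells 0 of 6 tested were called between the genotypes, and 1 of 5 in plasma-cell-like cells with IL1β, where *Bcl2*, the survival factor, was higher in *Tet2*-KO mice (1.16, adjusted p = 0.0256 by edgeR; 0.456% of all genes called). Of 13 genes of lymphoid homeostasis and quiescence, 0 of 8 tested in HSC-like and 0 of 12 tested in NK/T-like cells were called between the genotypes. IL1β in *Tet2*-KO mice raised 3 of these 12 in NK/T-like cells, where 11% of all genes were called: *Ets1* (1.27, adjusted p = 0.00204 by edgeR), a transcription factor of lymphocytes, *Il7r* (0.93, 0.0384), the receptor of a lymphocyte survival cytokine, and *Runx3*. There it also raised 2 of 6 Bcl2 family genes, *Bcl2* (0.96, adjusted p = 0.0173 by edgeR) and *Bcl2l11* (0.95, 0.0290), which promotes cell death. Other calls of the same comparison went down: *Bcl2* in Flt3+ Cd34+ (-0.73, adjusted p = 0.00947 by edgeR) and Mpo+ Cd34+ progenitors (-0.79, 0.0370), *Bax*, which also promotes cell death, in both of these and in HSC-like cells (-1.05, 0.000982), and *Il7r* in Dntt+ progenitors (-2.84, 0.00288). *Mcl1*, another survival factor, rose with IL1β in Dntt+ progenitors of *Tet2*-KO mice (1.053, adjusted p = 0.0109 by edgeR) and of WT mice (0.86, 0.0402). In WT mice IL1β also raised *Mcl1* in HSC-like cells (1.01, adjusted p = 0.0121 by edgeR), and *Bcl2* fell in Mpo+ Cd34+ progenitors (-1.08, 0.00217). The interaction of genotype and IL1β did not pass for *Bcl2*, *Bax* or *Mcl1* in any of the 6 gates by edgeR, so these effects were not shown to differ between the genotypes.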

How the data were processed

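Single-cell RNA-seq (10x 3′ v3.1) of Lin- bone marrow was analysed from 8 libraries, each a pool of 2 mice. The authors counted UMIs per gene and barcode with Cell Ranger 3.1.0 on mm10 (the submitters' notes also list Seurat 3.2.3), and the deposited counts, hashtag counts included, are not normalized.

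From these counts, barcodes with at least 750 genes and at most 10% mitochondrial UMIs were kept (94917 of 121405), and hashtags were assigned with HTODemux in Seurat 5.3.0 (57896 cells to 1 mouse, 3938 doublets removed, 33083 without a call). No other doublet caller was run. Cells were gated by marker genes, and UMIs were summed per mouse and gate, leaving out mice with under 10 cells of a gate. Summed depth was 4388604 to 44152768 UMIs per mouse. Differences were tested with edgeR 4.0.16 (quasi-likelihood, TMM, filterByExpr, all 4 groups in 1 model, R 4.3.3) with Benjamini-Hochberg adjustment over all genes tested in a gate, at a threshold of 0.05, and DESeq2 1.42.0 as an alternative. The procedure was tested on simulated data with 200 genes changed. p-values measure the spread between mice, 2 of which share each library. For shares of cells with a UMI, each cell was thinned to 3000 UMIs. Gene positions come from GENCODE vM21 and promoters from RefSeq.

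All 8 members, *Tmem176a*, *Tmem176b*, any neighbour within 500 kb that passed, and the 5 genes most like *Gimap6* over the gates were named. The members and gene lists were chosen with earlier results of these data known. Alternatives were other size factors, DESeq2, no filter on low counts, a replicate block, sex as a covariate, only the groups compared, at least 30 cells per mouse, the pool as replicate, hashtag calls by ratio, Leiden clusters in place of gates, at least 3 HSC markers, no cell with an NK/T UMI, and each mouse left out in turn. The split of NK/T-like cells by Cd3 UMIs was added after the data were seen.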

Additional observations from a re-analysis of the deposited data

Results flagged for a closer look

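Of 94 groups of 4 mice, in which a member passed the filter, 4 held 1 mouse whose gap to the nearest of the others exceeded Dixon's 95% critical value. Chance marks about 1 in 20 groups. *Gimap6* in Dntt+ lymphoid progenitors was at 97.3 CPM in WT vehicle mouse 4 and at 128.604 to 131.801 CPM in the other WT vehicle mice. *Gimap1* in HSC-like cells was at 179 CPM in *Tet2*-KO IL1β mouse 3 and at 125 to 132 CPM in the others of that group. *Gimap9* in HSC-like cells was at 98.3 CPM in WT vehicle mouse 2, whose cells carry UMIs of both sexes, and at 37.1 to 47.0 CPM in the others. *Gimap6* in plasma-cell-like cells was at 54.5 CPM in *Tet2*-KO IL1β mouse 3 and at 126 to 132 CPM in the others.

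The effect of IL1β on *Gimap1* in plasma-cell-like cells differed between the genotypes by the interaction test (1.46 on the log2 scale, adjusted p = 0.0483 by edgeR). Its alternatives gave values of 1.09 to 1.57 and adjusted p of 0.0156 to 0.742.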

How the results depend on the processing

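Among 27 tests of a member over 6 gates, *Tet2*-KO relative to WT with vehicle gave 0 calls under every alternative run. With IL1β the 6 calls ranged from 3 to 8 when each mouse was left out and were 11 without a filter on low counts. For IL1β in WT the 2 calls ranged from 1 to 3 without single mice and were 1 with DESeq2, with only the groups compared or with hashtag calls by ratio, and 4 with clusters. For IL1β in *Tet2*-KO mice the 7 calls ranged from 4 to 7 without single mice. They were 11 with hashtag calls by ratio and 4 with clusters. With only cells with a Cd3 UMI kept in the NK/T gate they were 3. That split changed only this gate, where *Gimap3* alone was called, and the rest are calls of the other gates. For the interaction the 1 call ranged from 0 to 1 without single mice and was 4 with DESeq2, 6 without a filter and 0 with sex as a covariate, at least 30 cells, the pool as replicate, hashtag calls by ratio or clusters. The clusters named Mpo+ Cd34+ progenitor, mostly granulocyte-progenitor-like and monocyte-like cells and so not the same class as the gate, gave *Gimap6* -0.0694 for *Tet2*-KO relative to WT with IL1β and -0.3604 for IL1β in *Tet2*-KO mice. The other causes were not tested. Of 397 alternative values of the 15 called results other than the interaction, 322 kept their call, 73 kept only the direction (3 of them DESeq2 values with no adjusted p) and 2, these cluster values, had the other sign. The interaction of *Gimap1* lost its call without 12 of the 16 mice in turn.

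Without TMM factors, levels in NK/T-like cells of *Tet2*-KO vehicle mice were 102 CPM for *Gimap1* (115 with them) and 208 CPM for *Gimap4* (235). Without thinning, the shares of cells with a *Gimap6* UMI were 5.98%, 4.94%, 6.77% and 4.36% in erythroid-like cells of WT vehicle, WT IL1β, *Tet2*-KO vehicle and *Tet2*-KO IL1β mice, and 22.9%, 26.2% and 42.6% in HSC-like cells of the last 3.

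The pool number did not pair the mice: deviations of mice with the same pool number in different groups had a mean r of -0.0022 in HSC-like cells (48 pairs) and 0.0297 in NK/T-like cells (42 pairs). With this number as a replicate block there were 7 calls between the genotypes with IL1β, with *Gimap8* in NK/T-like cells added (adjusted p = 0.0436 by edgeR), and 0 for the interaction, where that of *Gimap1* in plasma-cell-like cells had an adjusted p of 0.0556.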
